A study of Homo sapiens with 12 samples.

Results

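The expression of 10 genes of the Notch pathway was examined in U87 cells, the human glioblastoma cell line also written U-87 MG, kept under hypoxia with 1% O2. The genes were chosen by name, with no threshold on their values, from the 20263 genes measured, and comprised the receptors NOTCH1, NOTCH2 and NOTCH3, the ligands JAG1, JAG2 and DLL1, the coactivator MAML1 and the targets HES1, HEY1 and HEY2. Earlier results of these data were known when they were chosen. Messenger RNA was sequenced in 4 groups of 3 libraries each, namely cells with an empty vector (vector), HIF1α knockout cells (HIF1α-ko), HIF2α knockout cells (HIF2α-ko) and cells with both knockouts (HIF1α/2α-ko). All 4 groups were cultured under hypoxia, so no comparison with normal oxygen could be made. The record of the sequencing gives 72 h of hypoxia and the paper's methods give 12 h for mRNA detection in general. How the knockout cells were made, whether each is 1 clone, and whether the 3 libraries of a group came from separate cultures are not given in the sources used here, so the p-values measure the spread between these libraries.

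Notch is a receptor read at contacts between cells. A ligand of the Jagged or Delta family on a neighbouring cell pulls on the receptor, which is then cut by an ADAM protease and by γ-secretase, and the freed intracellular domain enters the nucleus, binds the DNA-binding protein RBPJ and recruits a Mastermind coactivator such as MAML1. HES and HEY genes, which encode transcriptional repressors, are the best known targets. In glioma the pathway is known for its link to stem-like cells, and HIF1α and HIF2α, encoded by HIF1A and EPAS1, are the oxygen-regulated subunits of the hypoxia-inducible factors.

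For 8 of the 10 genes, the 250 bases before the start annotated by RefSeq were read from the RefSeq promoter table for GRCh38.p14. DLL1 and HEY1 were not searched, so nothing is said of their windows. The first start listed for each gene was used. These starts can differ from the gene positions given below, which are those of GENCODE 29. The HEY2 window, at chr6:125749382-125749631 (plus strand), lies inside the HEY2 gene as positioned there, which starts at 125747664. The NOTCH1 window begins at 136546049 and does not adjoin its gene, which ends at 136545786. Each window was searched on both strands for the core of the RBPJ site, TGGGAA, and for the core of the hypoxia response element, ACGTG or GCGTG, with overlapping matches kept. Across 35116 such windows, 20.8% held the RBPJ core and 43.2% held a hypoxia response element core. The RBPJ core was found in the windows of 2 of the 8 genes, HES1 and HEY2, and the other core in 7 of the 8 windows, with no match for NOTCH2. The windows of NOTCH1 and JAG1 are shown because these transcripts rose the most firmly in HIF1α/2α-ko, and that of HES1 because it holds a pair of RBPJ cores. Matches are in capitals, on either strand, and each sequence runs 5′ to 3′ along the gene's own strand. The windows lie at chr9:136546049-136546298 (minus strand) for NOTCH1, chr20:10674000-10674249 (minus strand) for JAG1 and chr3:194135898-194136147 (plus strand) for HES1.
NOTCH1: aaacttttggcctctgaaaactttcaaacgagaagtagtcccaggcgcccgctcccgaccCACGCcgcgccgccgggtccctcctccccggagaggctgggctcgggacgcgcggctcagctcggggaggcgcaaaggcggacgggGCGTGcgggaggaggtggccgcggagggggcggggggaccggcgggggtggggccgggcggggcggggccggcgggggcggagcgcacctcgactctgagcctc
JAG1: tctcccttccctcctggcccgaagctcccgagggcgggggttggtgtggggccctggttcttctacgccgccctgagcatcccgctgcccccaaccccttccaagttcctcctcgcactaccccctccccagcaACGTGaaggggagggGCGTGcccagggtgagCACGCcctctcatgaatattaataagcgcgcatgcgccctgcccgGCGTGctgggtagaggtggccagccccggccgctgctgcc
HES1: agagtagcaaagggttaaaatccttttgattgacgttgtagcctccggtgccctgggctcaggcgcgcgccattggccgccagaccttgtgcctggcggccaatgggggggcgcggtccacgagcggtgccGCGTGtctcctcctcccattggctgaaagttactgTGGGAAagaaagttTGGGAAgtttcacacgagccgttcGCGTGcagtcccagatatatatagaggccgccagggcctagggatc
The NOTCH1 window held 2 hypoxia response element cores and the JAG1 window 4, neither with an RBPJ core, while the HES1 window held 2 of each kind. A match describes these letters only and is not evidence that a factor binds there.

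Levels are given as TPM, the deposited unit, which corrects reads for transcript length and sets the total of every library to the same value. Because TPM keeps no sequencing depth, the depth of each library is unknown and no counting interval was given. Differences are log2 fold changes of TPM + 1 with their standard error (SE), tested with limma over the 11731 genes that reached 1 TPM in 3 or more libraries, and a gene passed the test where its Benjamini-Hochberg adjusted p was under 0.05. The pseudocount makes the change of low genes look smaller than it is. DLL1 and HEY2 stayed below the filter on low values, so 8 of the 10 genes were tested. All comparisons with vector share the same 3 vector libraries. Over all tested genes the median log2 difference from vector was 0.18 for HIF1α-ko, -0.04 for HIF2α-ko and 0.21 for HIF1α/2α-ko, and median ratio scaling brought these medians to 0.01, -0.00050 and -0.0046, so changes are also given relative to the median. In this bulk RNA, fewer cells of a type and less RNA per cell cannot be told apart.

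The knockouts left both targeted transcripts measurable. Levels of these transcripts do not measure the HIF proteins. By western blot the paper reported more HIF2α protein after HIF1α knockout, and more HIF1α protein after HIF2α knockout. HIF1A averaged 124 TPM for vector, 48.5 for HIF1α-ko, 86.8 for HIF2α-ko and 75.5 for HIF1α/2α-ko, and EPAS1 averaged 322, 265, 107 and 117 TPM in the same order. In HIF1α/2α-ko HIF1A ranged from 67.8 to 89.2 TPM. This overlapped HIF2α-ko, at 76.1 to 107.7, and lay above HIF1α-ko, at 38.6 to 57.3. Replicates of a group correlated at a Pearson's r of 0.966 to 0.992 across genes, the lowest values belonging to vector replicate 1 and the next to HIF1α/2α-ko replicate 1. Of 8 glial and glioma markers, VIM (5635 to 14690 TPM), CD44, NES and OLIG2 were measured, whereas GFAP, S100B and SOX2 were under 1 TPM in every library and AQP4 was listed at 0 in all of them. The summed level of the 8 was 12670 to 15520 TPM for vector, 10020 to 11900 for HIF1α-ko, 7183 to 9323 for HIF2α-ko and 6213 to 9810 for HIF1α/2α-ko. Nearly all of that sum is VIM. OLIG2 went the other way, from 0.884 to 2.70 TPM in vector to 7.61 to 19.2 in HIF1α/2α-ko, and CD44 overlapped between these groups, at 681 to 1062 and 508 to 1080 TPM. Among markers of other cells, 3 of 4 neuronal, 3 of 4 immune and 4 of 4 epithelial genes were under 1 TPM in every library, including RBFOX3, PTPRC and EPCAM, and nearly all of the immune sum was CD68. The summed immune markers were 1284 to 1633 TPM for vector, 816 to 1061 for HIF1α-ko, 1010 to 1221 for HIF2α-ko and 587 to 818 for HIF1α/2α-ko, so each knockout group lay below vector without overlap. The summed endothelial markers were 1.84 to 6.90 TPM for vector, 1.60 to 4.14 for HIF1α-ko, 3.77 to 7.13 for HIF2α-ko and 1.15 to 1.94 for HIF1α/2α-ko, and the summed neuronal markers 3.68 to 4.70, 2.42 to 2.97, 3.94 to 4.46 and 1.79 to 2.85. The part of these differences in the results below was not tested.

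In HIF1α/2α-ko, the receptors moved in opposite directions. NOTCH1 rose to 4.03 times its vector mean, while NOTCH2, the most abundant of the receptors, dropped to 0.520 times and NOTCH3 to 0.602 times. The ligand JAG1 rose to 3.002 times and the target HEY1 to 5.52 times their vector means. Of the 8 tested genes, 3 were higher and 2 lower in HIF1α/2α-ko than in vector, where 31.8% of all tested genes were higher and 14.8% lower. In HIF1α-ko 2 of the 8, JAG1 and HEY1, were higher and none lower, beside 17.3% of all genes higher and 8.77% lower. With median ratio scaling that count was also 2 but named other genes, since JAG1 and HEY1 no longer passed and NOTCH2 and MAML1 were lower. In HIF2α-ko none of the 8 passed the limma test, 1 of them (JAG2) had an unadjusted p under 0.05, and 5.07% of all genes were higher and 5.89% lower. With median ratio scaling the count in HIF2α-ko was 1, again JAG2. The median log2 fold change over the 8 genes was 0.38 for HIF1α-ko, 0.01 for HIF2α-ko and 0.09 for HIF1α/2α-ko, beside the medians of all genes given above. These shares of all genes lean on the scaling and on single libraries. With median ratio scaling 1285 genes were higher and 1545 lower in HIF1α-ko, in place of 2031 and 1029, and 2760 were higher and 2698 lower in HIF1α/2α-ko, in place of 3732 and 1741. In HIF2α-ko the counts were 761 and 579 in place of 595 and 691. Leaving out 1 library gave 1010 to 2828 genes higher and 542 to 1366 lower in HIF1α-ko, with the total moved by over 1.5 times when replicate 2 or replicate 3 of either group was the one left out. In HIF2α-ko it gave 250 to 1304 and 219 to 1193, with each of the 6 libraries compared moving the total that far, from 252 and 219 without vector replicate 3 to 1304 and 1193 without vector replicate 1. In HIF1α/2α-ko no library moved the total by over 1.5 times.

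**Figure D1:**
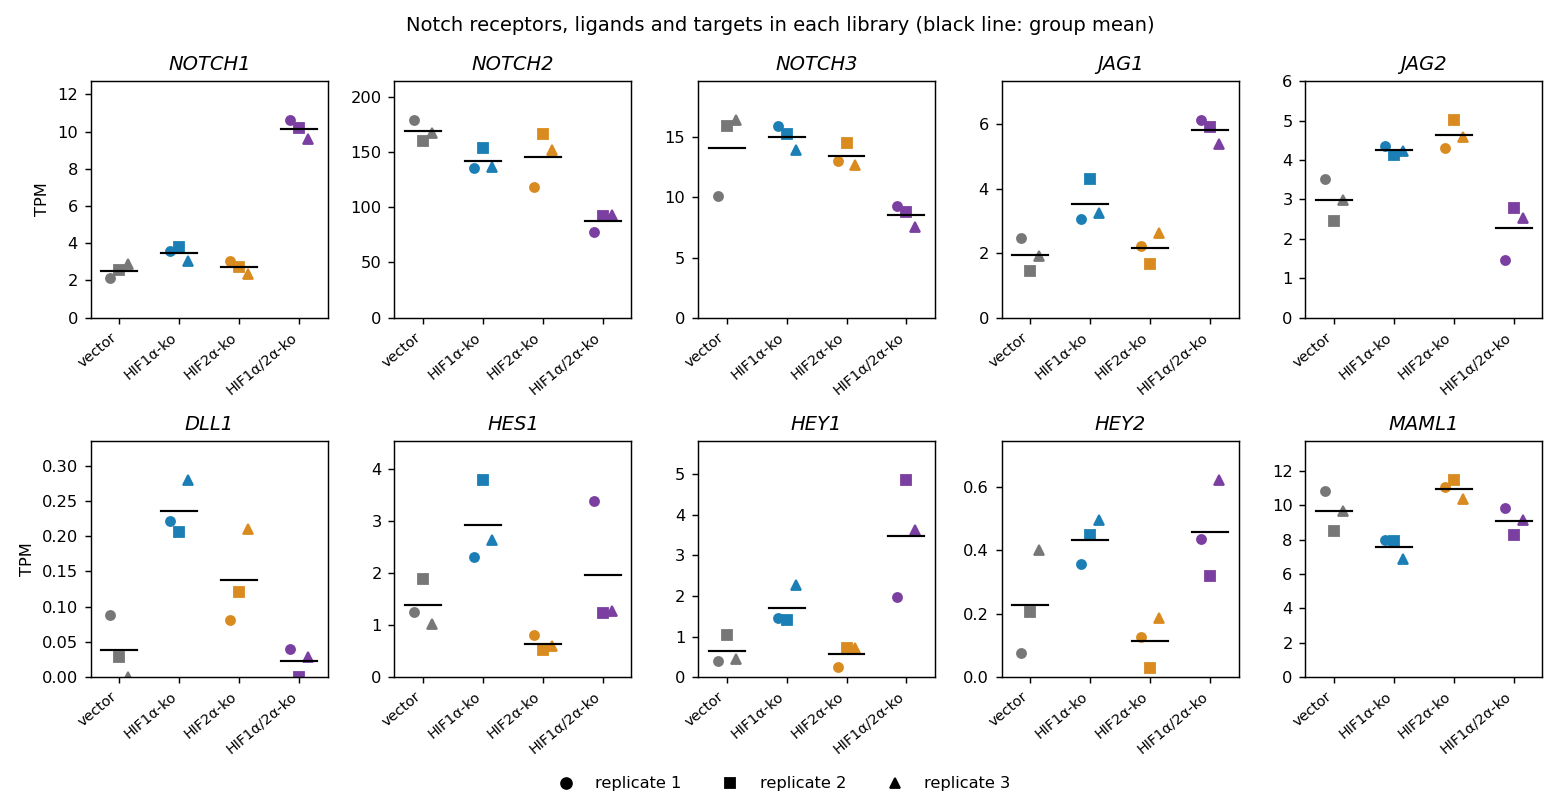
TPM of each of the 10 Notch genes (vertical axes in TPM, from 0, each on its own scale) in the 12 libraries, by group, with marker shapes for the replicate number and a black line at the group mean. The 3 HIF1α/2α-ko libraries lie above every other library for NOTCH1 and JAG1 and below every other library for NOTCH2 and NOTCH3, and HIF1α/2α-ko replicate 1 stands apart from its group for HES1.

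NOTCH1 (ENSG00000148400, GRCh38 chr9:136494433-136545786, minus strand, protein-coding) encodes the founding receptor of the family. Its level was 2.10, 2.53 and 2.90 TPM for the vector libraries, 3.57, 3.80 and 3.05 for HIF1α-ko, 3.03, 2.70 and 2.34 for HIF2α-ko, and 10.6, 10.2 and 9.58 for HIF1α/2α-ko. The dual knockout libraries stood clear of all others, while the HIF2α-ko libraries overlapped vector and the HIF1α-ko libraries lay just above it. NOTCH1 rose in HIF1α/2α-ko by a log2 fold change of 1.67 (SE 0.15, limma adjusted p = 7.87e-06), which is 1.46 above the median of all genes. The dual knockout also exceeded HIF1α-ko, by 1.32 (adjusted p = 0.000111), and HIF2α-ko, by 1.59 (adjusted p = 9.82e-06). In the single knockouts its log2 differences from vector were 0.35 (adjusted p = 0.103) and 0.08 (adjusted p = 0.802), and neither passed the test. No alternative setting changed any of these calls.

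NOTCH2 (ENSG00000134250, chr1:119911553-120069626, minus strand) was the most abundant gene of the set. It stood at 179, 160.4 and 168 TPM for vector, 136, 154 and 137 for HIF1α-ko, 119, 166 and 152 for HIF2α-ko, and 78.0, 92.4 and 93.3 for HIF1α/2α-ko. Every dual knockout library was below every other library. NOTCH2 fell by 0.94 on the log2 scale (SE 0.14, adjusted p = 0.000170), or 1.15 below the median, and it fell by 0.69 against HIF1α-ko (adjusted p = 0.00305) and by 0.71 against HIF2α-ko (adjusted p = 0.00116). Its log2 differences from vector of -0.25 for HIF1α-ko and -0.23 for HIF2α-ko did not pass the test (adjusted p = 0.194 and 0.321), although the first passed it with median ratio scaling (adjusted p = 0.0164). NOTCH2 shares nearly identical sequence with the NOTCH2NL genes, and how shared reads were counted is not given in the sources used here, so its level is uncertain. The copy NOTCH2NLA had a median of 6.84 TPM for vector, 10.3 for HIF1α-ko, 9.60 for HIF2α-ko and 9.55 for HIF1α/2α-ko.

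NOTCH3 (ENSG00000074181, chr19:15159038-15200981, minus strand), a receptor best known from smooth muscle cells and pericytes, stood at 10.1, 15.9 and 16.4 TPM in vector. It measured 16.0, 15.3 and 14.0 TPM for HIF1α-ko, 13.0, 14.5 and 12.7 for HIF2α-ko, and 9.25, 8.79 and 7.52 for HIF1α/2α-ko. The dual knockout libraries were the lowest, and vector replicate 1 lay nearer to them than to the other two vector libraries. NOTCH3 fell by 0.65 on the log2 scale in HIF1α/2α-ko (SE 0.18, adjusted p = 0.0106), by 0.76 against HIF1α-ko (adjusted p = 0.00811) and by 0.60 against HIF2α-ko (adjusted p = 0.0158). The change against vector was -0.85 (adjusted p = 0.000501) without vector replicate 1, and it missed the threshold in a fit of these 2 groups only (adjusted p = 0.0535). The change against HIF2α-ko lost significance without HIF2α-ko replicate 2 or HIF1α/2α-ko replicate 3, where the adjusted p reached 0.0663. In the single knockouts NOTCH3 was within 0.12 of vector on the log2 scale, at 0.11 and -0.05, and the sign of both values turned with median ratio scaling.

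The balance of these receptors within a library does not depend on how libraries are scaled. NOTCH4, which is not in the sum used here, measured 17.7 to 44.7 TPM over the libraries, more than NOTCH1 or NOTCH3. NOTCH1 made up 1.10 to 1.55% of the summed TPM of NOTCH1, NOTCH2 and NOTCH3 for vector, 1.98 to 2.30% for HIF1α-ko, 1.40 to 2.25% for HIF2α-ko and 8.68 to 10.8% for HIF1α/2α-ko. NOTCH2 made up 89.7 to 93.6% in vector and 79.7 to 84.5% in HIF1α/2α-ko, so it remained the main receptor transcript in every library. Its TPM was 58.0 to 85.2 times that of NOTCH1 in vector and 7.36 to 9.73 times in HIF1α/2α-ko.

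**Figure D2:**
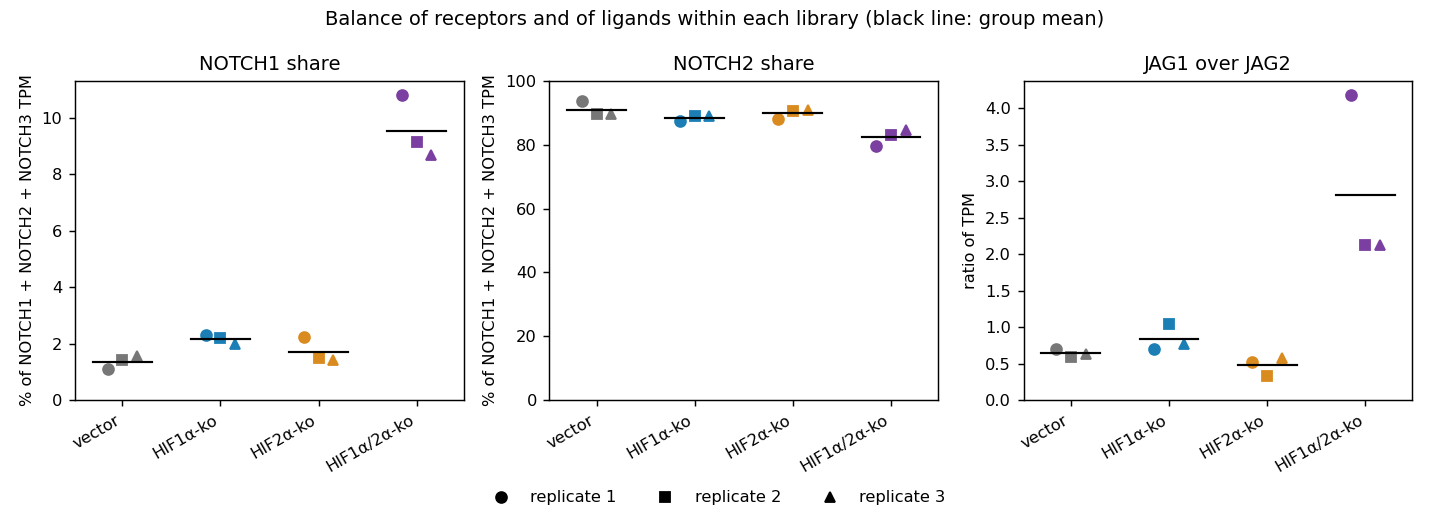
Share of NOTCH1 (left) and NOTCH2 (middle) in the summed TPM of NOTCH1, NOTCH2 and NOTCH3, without NOTCH4, in %, and the ratio of JAG1 to JAG2 TPM (right) in each of the 12 libraries, with marker shapes for the replicate number and a black line at the group mean. HIF1α/2α-ko has a NOTCH1 share of 8.68 to 10.8% and a JAG1 to JAG2 ratio of 2.12 to 4.18, above all libraries of the other groups.

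Among the ligands, JAG1 and JAG2 parted ways. JAG1 (ENSG00000101384, chr20:10637684-10673999, minus strand) measured 2.46, 1.45 and 1.90 TPM for vector, 3.07, 4.28 and 3.25 for HIF1α-ko, 2.23, 1.65 and 2.63 for HIF2α-ko, and 6.11, 5.92 and 5.39 for HIF1α/2α-ko. The HIF1α-ko libraries lay above vector and the dual knockout libraries above both, while HIF2α-ko overlapped vector. JAG1 rose by 1.23 on the log2 scale in HIF1α/2α-ko (SE 0.18, adjusted p = 0.000189), or 1.02 above the median, a call that held in all alternatives, and by 1.11 against HIF2α-ko (adjusted p = 0.000385). It rose by 0.63 in HIF1α-ko (SE 0.18, adjusted p = 0.0247), or 0.45 above the median. That call was lost with median ratio scaling, with the 2 groups fitted alone (largest adjusted p = 0.0582), and without any one of vector replicates 2 and 3 and HIF1α-ko replicates 2 and 3 (largest adjusted p = 0.105). The further rise of 0.60 from HIF1α-ko to HIF1α/2α-ko (adjusted p = 0.0280) was lost without any one dual knockout library or HIF1α-ko replicate 1 or 3, with an adjusted p of up to 0.0916. Between the single knockouts JAG1 differed by 0.52 (adjusted p = 0.0545), which passed with the replicate number as a block in the knockout groups (adjusted p = 0.0316), without the trend, and without vector replicate 1 or HIF1α/2α-ko replicate 1.

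JAG2 (ENSG00000184916, chr14:105140981-105168824, minus strand) stood at 3.52, 2.46 and 2.99 TPM in vector. It measured 4.37, 4.12 and 4.23 TPM for HIF1α-ko, 4.303, 5.003 and 4.58 for HIF2α-ko, and 1.46, 2.79 and 2.53 for HIF1α/2α-ko. Both single knockouts lay above vector without overlap, and the dual knockout overlapped vector from below. None of the log2 differences from vector passed the test, at 0.40 (adjusted p = 0.118), 0.50 (adjusted p = 0.0970) and -0.31 (adjusted p = 0.185), but with median ratio scaling HIF2α-ko was higher (adjusted p = 0.0331) and HIF1α/2α-ko lower (adjusted p = 0.0182) than vector. The value for HIF2α-ko also passed without vector replicate 1 or HIF1α/2α-ko replicate 1 (lowest adjusted p = 0.0369), and that for HIF1α-ko without HIF1α/2α-ko replicate 1 (adjusted p = 0.0475). Against the single knockouts JAG2 fell in HIF1α/2α-ko, by 0.71 (adjusted p = 0.0122) and 0.81 (adjusted p = 0.00316). The ratio of JAG1 to JAG2 was 0.590 to 0.698 for vector, 0.703 to 1.04 for HIF1α-ko, 0.329 to 0.575 for HIF2α-ko and 2.12 to 4.18 for HIF1α/2α-ko, so JAG1 was the more abundant ligand in every dual knockout library.

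DLL1 (ENSG00000198719, chr6:170282206-170306565, minus strand), a Delta-like ligand, was close to 0 throughout, at 0.000 to 0.0880 TPM for vector, 0.206 to 0.280 for HIF1α-ko, 0.0813 to 0.210 for HIF2α-ko and 0.000 to 0.0404 for HIF1α/2α-ko. Of the 12 libraries, 2 listed it at 0. In a fit without the filter its log2 difference from vector was 0.25 (adjusted p = 0.00576) for HIF1α-ko, 0.13 (adjusted p = 0.121) for HIF2α-ko and -0.02 (adjusted p = 0.775) for HIF1α/2α-ko. In that fit the dual knockout was lower than HIF1α-ko, by -0.27 (adjusted p = 0.00252), and lower than HIF2α-ko, by -0.15 (adjusted p = 0.0262), and the interaction of both knockouts was -0.40 (adjusted p = 0.00442). All of these are changes of a small fraction of 1 TPM.

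MAML1 (ENSG00000161021, chr5:179732850-179777286, plus strand), the coactivator that joins the RBPJ complex, varied little. It measured 10.8, 8.47 and 9.69 TPM for vector, 7.95, 7.94 and 6.87 for HIF1α-ko, 11.04, 11.5 and 10.3 for HIF2α-ko, and 9.85, 8.27 and 9.12 for HIF1α/2α-ko. Every HIF1α-ko library lay below every vector and HIF2α-ko library, and the difference from vector of -0.31 missed the threshold (adjusted p = 0.130), while it passed with median ratio scaling (adjusted p = 0.0360). MAML1 was lower in HIF1α-ko than in HIF2α-ko, with a log2 difference of -0.48 (adjusted p = 0.0313). That call was lost without any one of the 3 HIF2α-ko libraries or HIF1α-ko replicate 2 or 3, with an adjusted p of up to 0.120.

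Among the targets, HEY1 passed the test against vector in HIF1α/2α-ko and HES1 did not. Whether the targets differ from each other was not tested. HEY1 (ENSG00000164683), a repressor of the Hairy and Enhancer of split family, stood at 0.398, 1.04 and 0.453 TPM in vector and 0.259, 0.729 and 0.724 in HIF2α-ko. It measured 1.46, 1.40 and 2.28 TPM in HIF1α-ko and 1.97, 4.85 and 3.63 in HIF1α/2α-ko. The HIF1α-ko and dual knockout libraries lay above all vector and HIF2α-ko libraries, and HIF1α/2α-ko replicate 1 fell within the HIF1α-ko range. HEY1 rose by 1.43 on the log2 scale in HIF1α/2α-ko (SE 0.25, adjusted p = 0.000682), or 1.22 above the median, and by 1.47 against HIF2α-ko (adjusted p = 0.000557), and both calls held in all alternatives. With a pseudocount of 0.1 in place of 1 these changes were 2.31 and 2.43, and the change in HIF1α-ko was 1.38. The rise of 0.74 in HIF1α-ko (SE 0.25, adjusted p = 0.0486) stood at the threshold. It was lost without the filter, with median ratio scaling (largest adjusted p = 0.0750), and without any one of 8 libraries, namely vector replicates 1 and 3, the 3 HIF1α-ko libraries, HIF2α-ko replicates 2 and 3 and HIF1α/2α-ko replicate 3, with an adjusted p of up to 0.174. Between HIF1α/2α-ko and HIF1α-ko the difference was 0.69 (adjusted p = 0.0616), which passed with the replicate number as a block (adjusted p = 0.0244) or as a block in the knockout groups only (adjusted p = 0.0181), and without HIF1α/2α-ko replicate 1 (0.95, adjusted p = 0.00979). HIF1α-ko exceeded HIF2α-ko by 0.79 (adjusted p = 0.0393), a call that was lost without the filter, with median ratio scaling, and without any one of the 6 libraries compared or HIF1α/2α-ko replicate 3.

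HES1 (ENSG00000114315, chr3:194136145-194138732, plus strand), the classical Notch target, measured 1.26, 1.89 and 1.02 TPM for vector, 2.32, 3.80 and 2.65 for HIF1α-ko and 0.805, 0.520 and 0.595 for HIF2α-ko. In HIF1α/2α-ko it stood at 3.38, 1.23 and 1.27 TPM. All HIF1α-ko libraries were above vector, all HIF2α-ko libraries below it, and the dual knockout split, with replicate 1 high and the others within the vector range. HES1 was higher in HIF1α-ko than in HIF2α-ko by 1.24 (SE 0.26, adjusted p = 0.00491), or 1.01 above the median of that comparison, and this call held in all alternatives, with a value of 2.02 at a pseudocount of 0.1. Against vector its differences were 0.71 (adjusted p = 0.0570) for HIF1α-ko, -0.53 (adjusted p = 0.206) for HIF2α-ko and 0.25 (adjusted p = 0.445) for HIF1α/2α-ko, and none passed. HIF1α/2α-ko replicate 1 decided several of these values. Without it, HIF1α-ko passed against vector (adjusted p = 0.0127), HIF1α/2α-ko was lower than HIF1α-ko by -0.78 (adjusted p = 0.0127) where the value with it was -0.46 (adjusted p = 0.198), and the difference between HIF1α/2α-ko and vector turned to -0.07. The dual knockout exceeded HIF2α-ko by 0.78 (adjusted p = 0.0248), which became 0.46 (adjusted p = 0.0746) without that library. This call was also lost without HIF2α-ko replicate 2 or 3 and with median ratio scaling (adjusted p = 0.0765).

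HEY2 (ENSG00000135547, chr6:125747664-125761269, plus strand), the closest relative of HEY1, was under 1 TPM in every library, at 0.0774 to 0.400 TPM for vector, 0.358 to 0.496 for HIF1α-ko, 0.0290 to 0.186 for HIF2α-ko and 0.320 to 0.622 for HIF1α/2α-ko. The HIF2α-ko libraries lay below all those of HIF1α-ko and HIF1α/2α-ko. In the fit without the filter HEY2 was higher in HIF1α-ko than in HIF2α-ko by 0.37 (adjusted p = 0.0335) and higher for HIF1α/2α-ko than for HIF2α-ko by 0.39 (adjusted p = 0.0142), and its differences from vector did not pass.

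**Figure D3:**
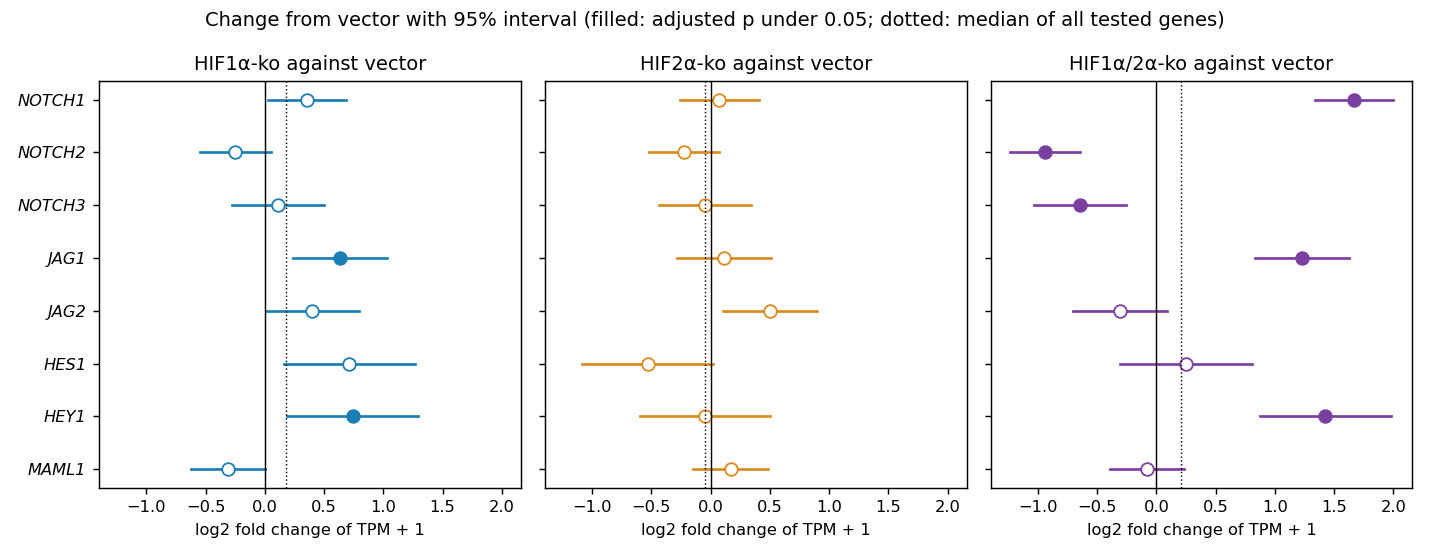
Log2 fold change of TPM + 1 against vector (horizontal axis) for the 8 tested Notch genes, with a panel each for HIF1α-ko (left), HIF2α-ko (middle) and HIF1α/2α-ko (right), bars for the 95% interval, filled circles where the limma adjusted p is under 0.05 and a dotted line at the median of all tested genes. In HIF1α/2α-ko NOTCH1 (1.67), JAG1 (1.23) and HEY1 (1.43) lie to the right and NOTCH2 (-0.94) and NOTCH3 (-0.65) to the left.

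Set against each single knockout, the dual knockout differed in most of these genes. Relative to HIF1α-ko, 2 of the 8 genes were higher and 3 lower, where 17.7% of all genes were higher and 10.6% lower. Relative to HIF2α-ko, 4 were higher and 3 lower, where 33.5% of all genes were higher and 12.9% lower, and MAML1 was the exception (-0.25, adjusted p = 0.181, or 0.0141 with median ratio scaling). Between HIF1α-ko and HIF2α-ko, 2 genes, HES1 and HEY1, were higher and 1, MAML1, was lower, with 17.8% of all genes higher and 7.37% lower. For these comparisons median ratio scaling gave 1891 genes higher and 1498 lower in place of 2076 and 1246 against HIF1α-ko, 2651 and 2558 in place of 3933 and 1509 against HIF2α-ko, and 1034 and 1312 in place of 2084 and 865 between the single knockouts. With the replicate number as a block in the knockout groups, 29.0% of all genes were higher and 19.5% lower for the dual knockout against HIF1α-ko, 43.6% and 19.0% against HIF2α-ko, and 37.8% were higher and 12.7% lower in HIF1α-ko than in HIF2α-ko. In that fit the Notch genes that passed numbered 6, 7 and 4. Leaving out HIF1α-ko replicate 2 or 3 or HIF2α-ko replicate 1 or 2 also moved the total of all genes between the single knockouts by over 1.5 times, to as few as 847 higher and 604 lower without HIF1α-ko replicate 2.

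The interaction term asked whether the change in HIF1α/2α-ko differed from the added single knockout changes. For NOTCH1 the single changes summed to 0.43 and the dual change was 1.67, an interaction of 1.24 (95% interval 0.77 to 1.71, adjusted p = 0.00296). For JAG2 the single changes summed to 0.90 and the dual value was -0.31, an interaction of -1.21 (95% interval -1.77 to -0.65, adjusted p = 0.00754). Both calls held in all alternatives, and they were 2 of the 8 genes, 1 higher and 1 lower, where 13.2% of all genes had a positive and 7.35% a negative interaction. Without HIF1α-ko replicate 3, HIF2α-ko replicate 2 or HIF1α/2α-ko replicate 3 the count over all genes fell by more than 1.5 times, to 976 positive and 566 negative without the first. NOTCH3 (-0.71, adjusted p = 0.0641), NOTCH2 (-0.47, adjusted p = 0.108), HEY1 (0.73, adjusted p = 0.166) and JAG1 (0.48, adjusted p = 0.203) missed the threshold. The NOTCH2 term passed with median ratio scaling (adjusted p = 0.0288) and without HIF2α-ko replicate 1 (adjusted p = 0.0373), and the HEY1 term passed without HIF1α/2α-ko replicate 1 (1.00, adjusted p = 0.0364). HES1 (0.07, 95% interval -0.72 to 0.85) and MAML1 (0.06, 95% interval -0.38 to 0.51) had values near 0 with wide intervals.

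**Figure D4:**
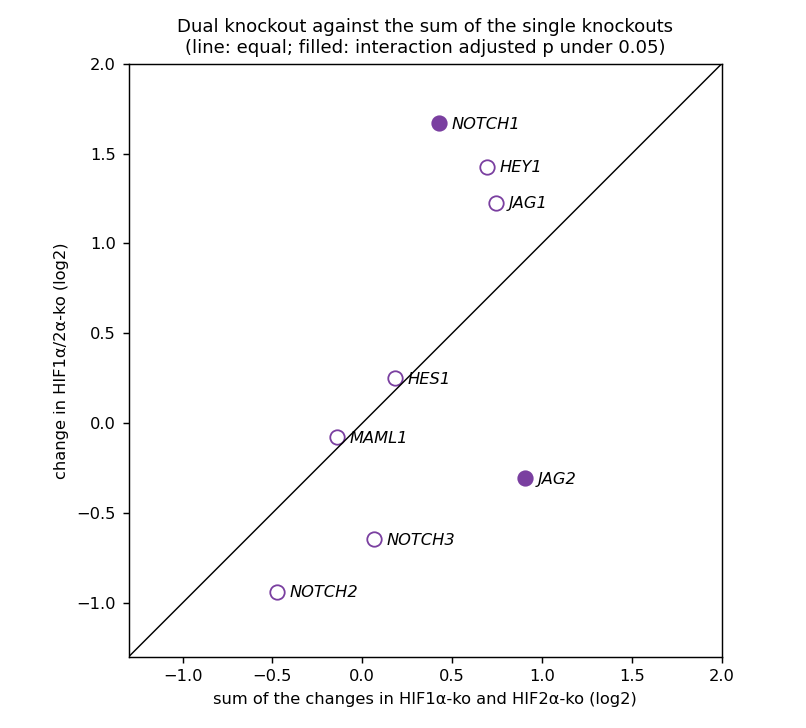
Log2 change from vector in HIF1α/2α-ko (vertical axis) against the sum of the log2 changes in HIF1α-ko and HIF2α-ko (horizontal axis) for the 8 tested Notch genes, with a line where both are equal and filled circles where the interaction has a limma adjusted p under 0.05. NOTCH1 lies above the line (1.67 against 0.43) and JAG2 below it (-0.31 against 0.90).

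A further 60 genes of the pathway were listed by role, of which 48 passed the filter. In HIF1α/2α-ko 13 of the 48 were higher than vector and 10 lower, whereas HIF1α-ko gave 10 and 3 and HIF2α-ko 3 and 6. As shares of the 48, these were 27.1% higher and 20.8% lower for the dual knockout, beside 31.8% and 14.8% of all tested genes, 20.8% and 6.25% for HIF1α-ko, beside 17.3% and 8.77%, and 6.25% and 12.5% for HIF2α-ko, beside 5.07% and 5.89%. The counts by role given next, each of at most 12 genes, are likewise to be read against 31.8% higher and 14.8% lower. The median log2 fold change of the 48 was 0.11 for the dual knockout, 0.20 for HIF1α-ko and -0.22 for HIF2α-ko, where all genes had 0.21, 0.18 and -0.04. Subtracting the median of all genes left the sign of every gene named here as having risen or fallen in HIF1α/2α-ko. Among 6 other receptors and ligands, only NOTCH4 and DNER, a transmembrane protein that binds Notch, passed the filter. NOTCH4, a receptor known mainly from endothelium, fell by 0.60 (adjusted p = 0.0149), from 27.6 to 34.5 TPM in vector to 17.7 to 22.1 in HIF1α/2α-ko. The summed endothelial markers of HIF1α/2α-ko, at 1.15 to 1.94 TPM, overlapped those of vector, from 1.84, and of HIF1α-ko, from 1.60. Of these markers VWF, at 0.592 to 0.630 TPM in HIF1α/2α-ko, lay within the vector range of 0.226 to 1.82. The part of these markers in the fall of NOTCH4 was not tested. DNER differed by 0.17 (adjusted p = 0.369).

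The enzymes that process the receptor included the pair of largest rises of log2(TPM + 1) in HIF1α/2α-ko among the pathway genes tested, FURIN and PSEN2. As a ratio of mean TPM to vector, HES4 (10.9) and HEY1 (5.52) rose further than PSEN2 (5.40) and FURIN (4.69). Of 9 genes for receptor cleavage, 3 rose and 1 fell in HIF1α/2α-ko. PSEN2, a catalytic subunit of γ-secretase, stood at 5.20, 5.39 and 5.64 TPM for vector, 10.2, 10.3 and 8.58 for HIF1α-ko, 7.86, 8.23 and 6.70 for HIF2α-ko and 24.1, 29.5 and 34.1 for HIF1α/2α-ko. It rose in HIF1α/2α-ko by 2.22 (SE 0.16, adjusted p = 1.56e-06) and in HIF1α-ko by 0.73 (adjusted p = 0.00636), and its groups did not overlap. PSENEN, another γ-secretase subunit, rose by 0.92 (adjusted p = 0.000111), and NCSTN, a further subunit that was named after its value was seen, fell by 0.68 (adjusted p = 0.000969). PSENEN also passed as higher in both single knockouts, calls lost without any one of 5 libraries for HIF1α-ko and of 4 for HIF2α-ko. FURIN, the convertase that cuts the receptor on its way to the surface, measured 24.9, 4.42 and 5.41 TPM in vector and 55.2, 54.6 and 53.1 in HIF1α/2α-ko. It stood at 34.6, 32.1 and 29.9 TPM in HIF1α-ko and 31.2, 25.8 and 24.1 in HIF2α-ko. In HIF1α/2α-ko FURIN rose by 2.52 (SE 0.43, adjusted p = 0.000476), and by 3.23 without vector replicate 1, which stood apart from the other vector libraries. FURIN also passed as higher in both single knockouts, the call in HIF2α-ko being lost without any one of 9 libraries. HIF1α/2α-ko did not pass against either single knockout, though it did without vector replicate 1 and with only the 2 groups fitted. Of the 4 glycosylation genes tested, none rose and RFNG, a fringe enzyme that modifies the receptor, fell by 0.51 (adjusted p = 0.0210), a call lost with only the 2 groups fitted (adjusted p = 0.0802) and without vector replicate 2 or HIF1α/2α-ko replicate 2 or 3 (largest adjusted p = 0.0652), and moved to -0.28 without vector replicate 2. POFUT1 (0.21, adjusted p = 0.177) and POGLUT1 (0.32, adjusted p = 0.188), which add the first sugars, did not pass.

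Of 11 genes for endocytosis and turnover, 2 rose and 2 fell. MIB1, the ubiquitin ligase that lets a ligand be internalised, rose by 0.86 (adjusted p = 0.00201), or by 1.35 at a pseudocount of 0.1. MIB1 also passed as higher in HIF1α-ko, a call lost without any one of 7 libraries (largest adjusted p = 0.129). Between HIF1α/2α-ko and HIF1α-ko it did not pass. NUMB, an inhibitor of Notch signalling, rose by 1.34 (adjusted p = 0.00603), from 21.5 to 34.3 TPM in vector to 37.5, 87.7 and 90.8 in HIF1α/2α-ko, where replicate 1 was the low one, and its relative NUMBL fell by 0.78 (adjusted p = 0.00449). Of 7 nuclear activators, 1 rose and 2 fell. RBPJ, the DNA-binding partner of all Notch receptors, stood at 26.2, 22.0 and 36.3 TPM for vector, 11.4, 16.6 and 12.8 for HIF1α-ko, 22.2, 32.6 and 34.1 for HIF2α-ko and 6.59, 17.5 and 15.2 for HIF1α/2α-ko. It fell in HIF1α/2α-ko by 1.12 (SE 0.31, adjusted p = 0.0106), or by 0.72 without HIF1α/2α-ko replicate 1. In HIF1α-ko it fell by 0.99 (adjusted p = 0.0356), a call lost without the filter (adjusted p = 0.0646) and without vector replicate 3 or any one HIF1α-ko library (largest adjusted p = 0.133). The coactivator MAML2 fell by 1.37 (adjusted p = 0.000632) and the acetyltransferase KAT2A rose by 0.72 (adjusted p = 0.00672).

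Of 12 nuclear repressors, 4 rose and 3 fell in HIF1α/2α-ko. TLE1, a Groucho corepressor that works with HES proteins, rose by 1.37 (SE 0.16, adjusted p = 3.77e-05). It stood at 35.2, 44.5 and 46.6 TPM in vector and 131, 101 and 101 in HIF1α/2α-ko, with 32.4 to 41.2 TPM in the single knockouts. CTBP1, a corepressor that binds several DNA-binding proteins, rose by 1.08 (adjusted p = 0.000150), and CIR1, which links RBPJ to histone deacetylases, fell by 0.62 (adjusted p = 0.00328). Of 7 further HES, HEY and related genes, 3 passed the filter and all 3 rose. HES6, known as an antagonist of HES1, rose by 1.47 (adjusted p = 0.000212), from 3.14 to 4.42 TPM in vector to 10.9 to 14.97. HES6 also passed as higher in HIF1α-ko (6.40 to 8.94 TPM) and in HIF2α-ko (5.69 to 10.8 TPM). The first call was lost without vector replicate 2 or HIF1α-ko replicate 3, and the second without any one of 7 libraries (largest adjusted p = 0.135). HIF1α/2α-ko passed against each single knockout, but each call was lost without any one of 4 libraries and with median ratio scaling. HES4 rose by 1.43 (adjusted p = 0.000255), from 0.0999 to 0.363 TPM to 1.41 to 3.36 (2.96 at a pseudocount of 0.1), and also in HIF1α-ko, by 0.97 (adjusted p = 0.00862). The rise of HES7 by 0.50 (adjusted p = 0.0314) was lost with median ratio scaling (0.29, adjusted p = 0.259), with the 2 groups fitted alone, and without any one of vector replicates 1 and 3 and HIF1α/2α-ko replicates 1 and 2 (largest adjusted p = 0.0938).

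**Figure D5:**
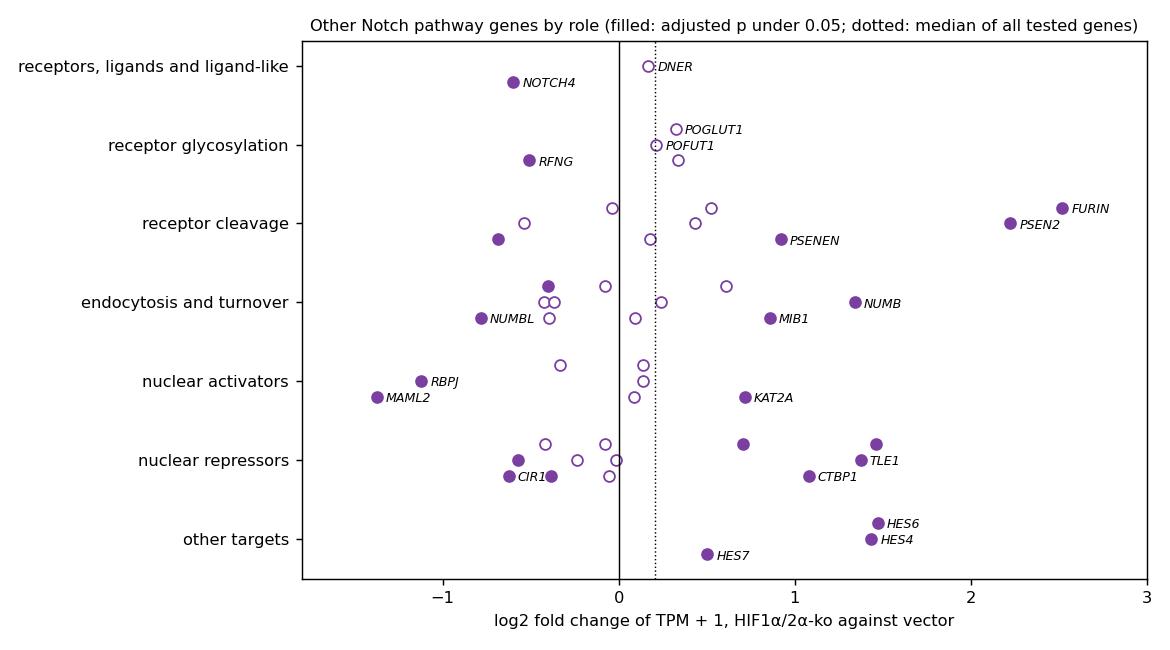
Log2 fold change of TPM + 1 in HIF1α/2α-ko against vector (horizontal axis) for the 48 other pathway genes tested, in rows by role, with filled circles where the limma adjusted p is under 0.05, a dotted line at the median of all tested genes and names for the genes with the smallest p of each role. FURIN (2.52) and PSEN2 (2.22) lie farthest to the right and MAML2 (-1.37) and RBPJ (-1.12) farthest to the left.

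Among the 10 Notch genes, the group means of log2(TPM + 1) spanned the widest range for NOTCH1, at 1.67, although with a pseudocount of 0.1 HEY1 (2.43) and HES1 (2.02) spanned more than NOTCH1 (1.98). The genes most like it over the 12 libraries, by Pearson's r of log2(TPM + 1), were ASB6 (0.988), GDF15 (0.988) and RHBDD2 (0.985), and 128 genes had an r of at least 0.95. GDF15, a secreted stress-induced cytokine, averaged 18.0 TPM for vector, 35.9 for HIF1α-ko, 19.9 for HIF2α-ko and 325 for HIF1α/2α-ko. The 12 points share 4 groups, so this likeness largely restates which genes were high in the dual knockout, and it is given as a description.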

How the data were processed

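Messenger RNA of U87 cells under hypoxia was sequenced from poly(A)-selected libraries in 4 groups of 3. The authors deposited TPM values for 20263 genes and 12 libraries, with no pooling and column sums of 999955 to 999982. The submitters' processing notes name FastQC 0.11.2, Trimmomatic 0.36, HISAT2 2.0, bedtools 2.26.0 and GRCh38. The counter and the annotation are not given in the sources used here, and gene positions are those of GENCODE 29. Groups came from the labels, and vector columns are those without a knockout code.

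Values were analysed as log2(TPM + 1) for the 11731 genes reaching 1 TPM in 3 or more libraries. The model (limma 3.58.1, R 4.3.3) held all 4 groups, with a mean-variance trend and Benjamini-Hochberg adjustment within each contrast at 0.05. Count models do not apply to this unit. The fit was tested on simulated data. Tables and figures used matplotlib 3.10.9, numpy 2.4.6, pandas 2.3.3 and Python 3.11.15.

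The genes, role lists and markers were chosen with earlier results of these data known. Named genes are the 10 genes, HIF1A and EPAS1, for each role list the up to 3 genes of smallest p (HIF1α/2α-ko against vector), and the 3 genes most like the gene of widest range. NOTCH2NLA and NCSTN were added after values were seen. Alternatives were a pseudocount of 0.1, no filter, median ratio scaling, no trend, the replicate number as a block (also in the knockout groups only), the 2 groups compared only, and each library left out in turn. A group left with 2 libraries shares the spread of the others.

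Deviations from the group mean were correlated across genes between same-numbered libraries of the knockout groups (Pearson's r 0.196 to 0.508) but not between vector and the knockouts (-0.0265 to 0.163). The numbers were therefore also fitted as a block, while the main model holds no replicate term. Only same-numbered libraries were correlated, so pairing by number and a difference of replicate 1 shared by the knockout groups cannot be told apart. This rests on the values, because the sources used here do not say what the numbers stand for.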

Additional observations from a re-analysis of the deposited data

Results flagged for a closer look

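The following results are listed because the dual change differed from the added single changes, by the interaction term of the limma model. Over all tested genes 13.2% had a positive and 7.35% a negative interaction that passed. Among the 8 Notch genes tested these were NOTCH1, with an interaction of 1.24 on the log2 scale (adjusted p = 0.00296), and JAG2, with -1.21 (adjusted p = 0.00754). NOTCH1 was high in the dual knockout alone, whereas JAG2 lay above vector in each single knockout and not in the dual knockout. In the fit without the filter DLL1, under 1 TPM in every library, had an interaction of -0.40 (adjusted p = 0.00442), and HEY2 had 0.15 (adjusted p = 0.537).

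Of the 48 other pathway genes tested, 6 had a positive and 3 a negative interaction that passed, or 12.5% and 6.25%, near the shares of all genes. The genes named here had been picked by their p in HIF1α/2α-ko against vector, so not all that passed are given. Among the other pathway genes named, TLE1 had the largest interaction, 1.81 (adjusted p = 0.000724), followed by PSEN2 with 1.07 (adjusted p = 0.00713), and both passed in all alternatives. HES7 had an interaction of 0.99 (adjusted p = 0.0158). KAT2A had 0.97 (adjusted p = 0.0218), which was lost without vector replicate 3, HIF1α-ko replicate 3, HIF2α-ko replicate 3 or HIF1α/2α-ko replicate 2 or 3, with an adjusted p of up to 0.0564. NOTCH4 had -0.91 (adjusted p = 0.0243), which was lost without vector replicate 3, HIF1α-ko replicate 2 or 3, HIF2α-ko replicate 2 or HIF1α/2α-ko replicate 3, with an adjusted p of up to 0.0636.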

How the results depend on the processing

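The number of Notch genes that passed against vector in HIF1α/2α-ko was 5 in the alternatives run except median ratio scaling, where it was 6 with JAG2, and the fit of the 2 groups compared only, where it was 4 without NOTCH3. In HIF1α-ko the number was 2, and 1 with only the 2 groups compared. The 2 genes were not always JAG1 and HEY1. Without the filter they were JAG1 and DLL1, which was under 1 TPM in every library, and with median ratio scaling NOTCH2 and MAML1, both lower. Leaving out 1 library gave 0 to 4 in HIF1α-ko, 0 to 1 in HIF2α-ko, 1 to 4 between HIF1α-ko and HIF2α-ko, 4 to 6 between HIF1α/2α-ko and HIF1α-ko, 5 to 7 between HIF1α/2α-ko and HIF2α-ko, and 2 to 3 for the interaction. The count in HIF1α-ko was 4 without HIF1α/2α-ko replicate 1 and 0 without vector replicate 3, HIF1α-ko replicate 2 or HIF1α-ko replicate 3. Median ratio scaling gave 1 in HIF2α-ko, in place of 0. With the replicate block the count between HIF1α/2α-ko and HIF1α-ko was 6 in place of 5, through HEY1, and with the replicate block in the knockout groups only the count between HIF1α-ko and HIF2α-ko was 4 in place of 3, through JAG1, and the blocks changed no other call of these genes. Of the values that changed sign, all were differences that had not passed. Median ratio scaling turned NOTCH3 to -0.0721 in HIF1α-ko against vector, to 0.0049 in HIF2α-ko against vector and to -0.0770 between HIF1α-ko and HIF2α-ko, and turned the MAML1 interaction to -0.0370. Leaving out 1 library gave, against vector, NOTCH3 of -0.10 to 0.23 in HIF1α-ko, NOTCH1 of -0.0113 to 0.15, NOTCH3 of -0.25 to 0.0696, JAG1 of -0.0103 to 0.24 and HEY1 of -0.15 to 0.12 in HIF2α-ko, and HES1 of -0.0712 to 0.42 in HIF1α/2α-ko. It gave NOTCH2 of -0.16 to 0.0773 between HIF1α-ko and HIF2α-ko, and interactions of -0.25 to 0.24 for HES1 and -0.0158 to 0.14 for MAML1. The cause was not tested. Over all comparisons of the 8 genes, leaving out 1 library kept 611 results in direction and call, lost 34 calls, gained 10 and turned 17 signs, and the other alternatives kept 330, lost 8, gained 10 and turned 4. The depth is unknown, so what it limits could not be given.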
